A study of Mus musculus with 4 samples.

Results

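The common gamma chain receptors and the Janus kinases that signal for them were described as a set of 10 genes in group 3 innate lymphoid cells (ILC3s) of mice kept in medium or stimulated with TL1A. The genes were chosen by name, with earlier results of these data known. They were Il7r, Il2ra, Il2rb, Il2rg, Il4ra, Il21r, Il15ra, Il9r, Jak1 and Jak3, and all 10 had at least 1 row in the deposited table. That table held 24343 genes once the rows of a gene were summed, with each row that has no symbol counted as a gene. ILC3s are tissue lymphocytes that lack antigen receptors and produce IL-22, and TL1A is a cytokine of the TNF superfamily that binds the receptor DR3. RNA-seq was carried out on 4 libraries, 2 for medium and 2 for TL1A, and all cells had been sorted from mice of the genotype IL23R-GFP/WT by GFP, by CD127 and by the absence of lineage markers, in which GFP reports activity of the Il23r locus. CD127 is the protein encoded by Il7r, so every group had been selected on the product of 1 of the 10 genes before stimulation. The sources used here do not give the tissue, the number and age of the mice, the dose of TL1A or the length of stimulation. It is not stated that replicate libraries stem from different mice or cultures, and p-values then cover only the spread among these 4 libraries, which may be technical.

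The common gamma chain, encoded by Il2rg, is a shared part of the receptors for IL-2, IL-4, IL-7, IL-9, IL-15 and IL-21. Each receptor adds a chain of its own that recognises the cytokine, and the receptors for IL-2 and IL-15 also share the beta chain encoded by Il2rb. The kinase JAK3 binds the common gamma chain and JAK1 binds the partner chain, and together they phosphorylate STAT proteins, chiefly STAT5 for IL-2, IL-7 and IL-15 and STAT6 for IL-4. ILC3s need IL-7 for their development and upkeep, and mice without the common gamma chain have few innate lymphoid cells.

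The 2 receptor genes that moved farthest in opposite directions, Il2ra and Il7r, are shown with the 250 bases before their annotated transcription start, and Il2rg is shown as the gene of the chain they share. The sequences were taken from RefSeq on GRCm38.p6, whereas the reads were counted on mm9. They lie at chr2:11642542-11642791 on the plus strand for Il2ra, chr15:9529877-9530126 on the minus strand for Il7r and chrX:101268256-101268505 on the minus strand for Il2rg. Capitals mark matches to the NF-κB consensus or to the STAT motif TTCNNNGAA, each searched on both strands.
Il2ra: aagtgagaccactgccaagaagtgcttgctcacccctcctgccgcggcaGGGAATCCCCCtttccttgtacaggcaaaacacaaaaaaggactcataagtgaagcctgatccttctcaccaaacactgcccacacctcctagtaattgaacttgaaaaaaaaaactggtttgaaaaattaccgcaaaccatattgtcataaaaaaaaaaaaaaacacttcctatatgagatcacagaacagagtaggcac
Il7r: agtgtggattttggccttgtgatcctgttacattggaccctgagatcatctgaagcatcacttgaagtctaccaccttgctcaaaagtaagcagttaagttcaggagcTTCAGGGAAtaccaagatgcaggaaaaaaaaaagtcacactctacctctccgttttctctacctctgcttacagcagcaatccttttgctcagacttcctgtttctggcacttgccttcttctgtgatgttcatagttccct
Il2rg: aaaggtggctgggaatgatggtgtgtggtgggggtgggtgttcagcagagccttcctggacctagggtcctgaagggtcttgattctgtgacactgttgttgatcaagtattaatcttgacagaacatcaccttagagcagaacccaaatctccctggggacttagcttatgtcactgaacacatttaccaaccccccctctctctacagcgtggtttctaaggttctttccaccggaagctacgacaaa
The capitals in Il2ra are 2 overlapping matches to the NF-κB consensus, 1 on each strand, which together reach from 201 to 191 bases before the start. The capitals in Il7r are 1 match to the STAT motif, from 142 to 134 bases before the start. Il2rg held no match to either motif. Of the 10 genes, 9 (all except Il2rb) had a promoter window in the RefSeq table, and among their 10 windows only that of Il2ra matched the NF-κB consensus and only that of Il7r matched the STAT motif. The NF-κB consensus was found in 7.25% of all 32851 windows of this length and the STAT motif in 7.02%. A match describes the letters only, and binding was not measured.

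The genes of all 3 chains of the IL-2 receptor rose with TL1A, those of the IL-4 receptor chain and of JAK1 rose less, and that of the IL-7 receptor chain fell. Of the 10 genes, 7 had enough reads to be tested, and of these 5 were higher with TL1A, 1 was lower and 1 was not called (edgeR quasi-likelihood test, Benjamini-Hochberg adjusted p under 0.05 over all 9852 genes tested). In the same test, 20.6% of all tested genes were higher and 21.7% were lower, 42.3% in all. The median log2 fold change was 0.86 over the 7 genes and -0.03 over all tested genes. The set was chosen with earlier results of these data known, so these values describe it and do not test it. Scaling by library totals alone, an alternative chosen after seeing the data, moved the median of all tested genes to -0.29 and the share of higher genes among those called from 48.6% to 27.4%, and the 5 increases and the decrease were still called. In bulk RNA, fewer cells that carry a transcript and less of it per cell cannot be told apart.

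**Figure D1:**
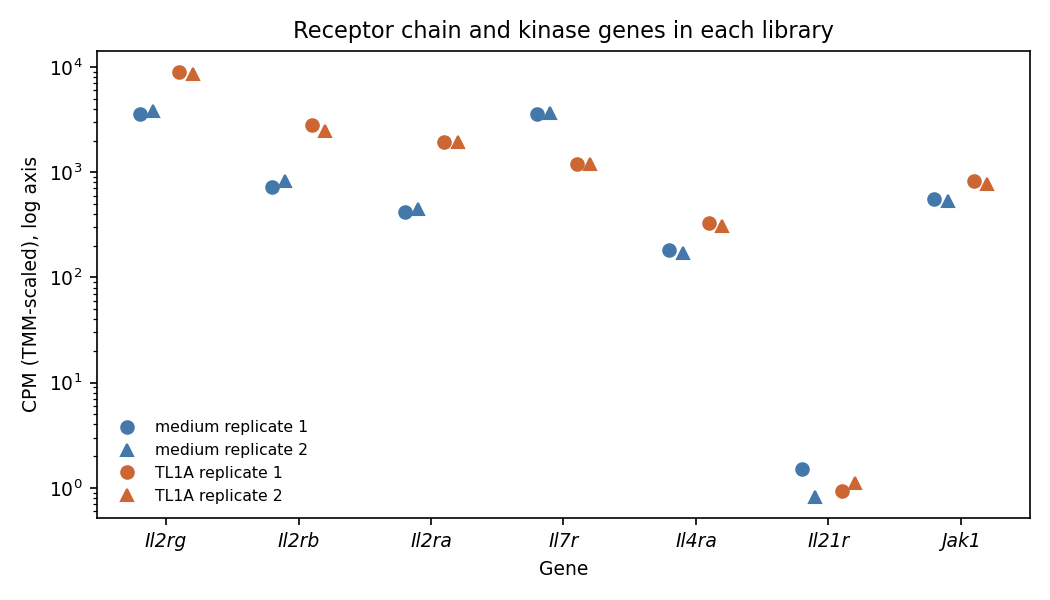
Expression as CPM (scaled by TMM library size, log axis) of the 7 tested genes in each of the 4 libraries; circles are replicate 1 and triangles replicate 2. The medium and TL1A libraries separate for 6 genes, with Il7r lower and the other 5 higher in TL1A, and overlap for Il21r near 1 CPM.

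The IL-2 receptor is built from 3 chains, and all 3 genes rose. Il2ra (transcript NM_008367) encodes CD25, the alpha chain that gives the receptor its high affinity for IL-2. Its level, as read counts scaled to TMM library size (CPM), was 421 and 448 CPM in the medium libraries and 1927 and 1927 CPM with TL1A. The TL1A libraries were alike and far above both medium libraries, a 4.44-fold increase (log2 fold change 2.15, SE 0.06, edgeR adjusted p = 6.15e-07). Il2rb (NM_008368) encodes the beta chain, which carries the signal of IL-2 and IL-15 inside the cell. It had 725 and 830.2 CPM in medium and 2827 and 2477 CPM with TL1A. The libraries of each condition lay further apart than for Il2ra, but the conditions did not overlap, and the increase was 3.41-fold (log2 fold change 1.77, SE 0.09, edgeR adjusted p = 7.31e-06).

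Il2rg (NM_013563), the gene of the common gamma chain, had 3588 and 3847 CPM in medium and 8964 and 8499 CPM with TL1A. Both TL1A libraries were above both medium libraries, a 2.35-fold increase (log2 fold change 1.23, SE 0.06, edgeR adjusted p = 5.15e-06). Among the 9852 tested genes ordered from the highest log2 fold change, Il2ra ranked 379, Il2rb 494 and Il2rg 796. The libraries of the conditions did not overlap for 6 of the 7 tested genes of the set, which has to be read against 72.2% of all tested genes.

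Il7r (NM_008372), which encodes the alpha chain of the IL-7 receptor, went the other way. It had 3552 and 3661 CPM in medium and 1209 and 1191 CPM with TL1A. Both TL1A libraries lay at about the same level, below both medium libraries, a 3.01-fold decrease (log2 fold change -1.59, SE 0.06, edgeR adjusted p = 1.20e-06). From the lowest log2 fold change upwards it ranked 603 of the tested genes. The medium libraries held 44605 and 48880 reads of Il7r and the TL1A libraries 12994 and 13812, so the gene stayed well counted in cells that had been sorted on its product.

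Il4ra (NM_001008700) encodes the alpha chain that pairs with the common gamma chain in the IL-4 receptor, and with another chain in the receptor shared by IL-4 and IL-13. It had 183 and 171 CPM in medium and 332 and 309.6 CPM with TL1A. Its increase of 1.81-fold (log2 fold change 0.86, SE 0.08, edgeR adjusted p = 0.000127) was smaller than those of the 3 IL-2 receptor genes, and the 95% intervals of the log2 fold changes, 0.67 to 1.04 for Il4ra and 1.09 to 1.37 for Il2rg, did not overlap.

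Jak1 (NM_146145), the gene of the kinase bound to the partner chains, had 551 and 535 CPM in medium and 821 and 769 CPM with TL1A. The conditions did not overlap, and the increase of 1.47-fold (log2 fold change 0.55, SE 0.07, edgeR adjusted p = 0.000519) was the smallest among the 6 called genes of the set. Scaled by library totals alone, its log2 fold change was 0.29 (edgeR adjusted p = 0.0071).

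The 4 remaining genes could not be followed. Il21r, which encodes the IL-21 receptor chain, had only 19 and 11 reads in the medium libraries against 10 and 13 in the TL1A libraries, with overlapping libraries. Its log2 fold change was -0.18, with a 95% interval from -1.44 to 1.09 (edgeR adjusted p = 0.816), so a change of 2-fold in either direction was not excluded. The estimate turned to 0.31 without medium replicate 1. Jak3 had 1 and 1 reads in the medium libraries against 1 and 4 in the TL1A libraries. Il15ra, the gene of the alpha chain of the IL-15 receptor, had 3 and 0 reads in the medium libraries against 1 and 2 in the TL1A libraries, and Il9r, the gene of the IL-9 receptor chain, had 0 reads in every library.

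These low counts do not measure expression of Jak3, Il15ra or Il9r. The deposited rows are transcripts, and a read that lies in more than 1 transcript is ambiguous and was counted for none. Il15ra had 9 rows, and Jak3 and Il9r had 2 rows each, while each of the 7 tested genes had 1 row. Over the whole table, genes with several rows had at most 10 reads in all 4 libraries together in 65.1% of cases, against 50.1% of genes with 1 row. A count of 0 allows up to 0.238 to 0.261 CPM (3 counts of the assigned reads of a library), which for Il9r limits only reads that belong to 1 of its rows.

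**Figure D2:**
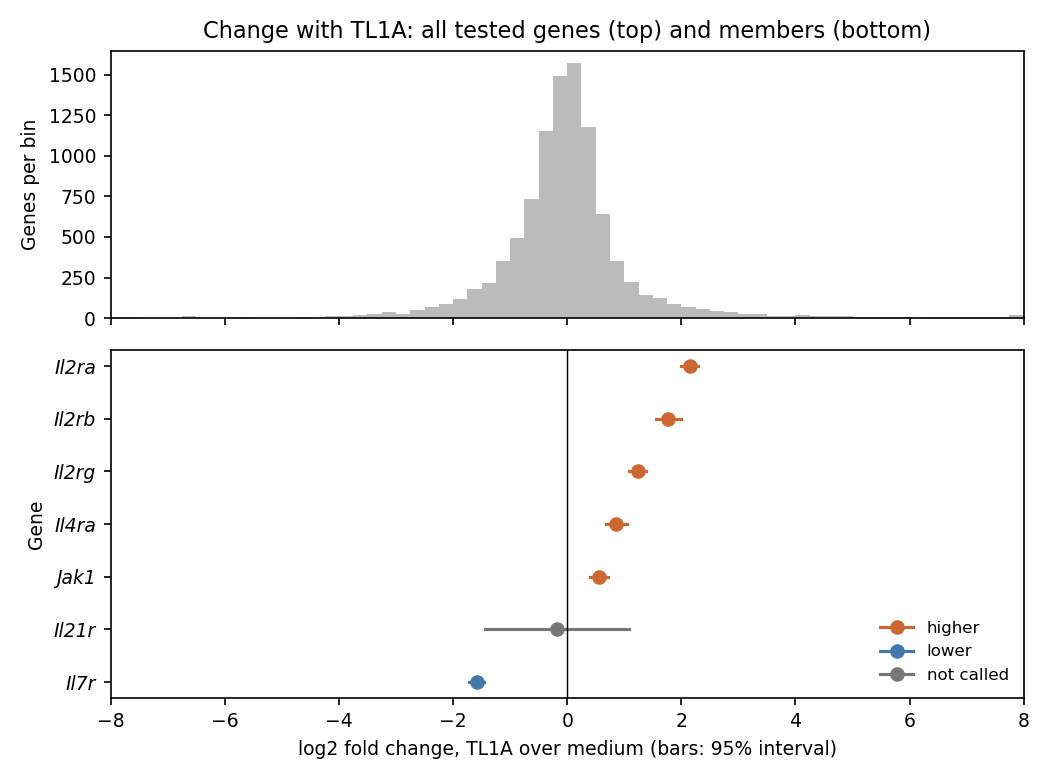
Log2 fold changes, TL1A over medium, as a histogram of all 9852 tested genes (top, genes per bin, with values beyond the axis in the end bins) and for the 7 tested genes of the set (bottom, points with 95% intervals from edgeR). Il2ra, Il2rb, Il2rg, Il4ra and Jak1 lie above 0 and Il7r at -1.59, while the interval of Il21r spans 0.

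Because the changes ran in opposite directions, the balance between receptor chains differed between the conditions. Levels of different genes were compared as CPM per kb of transcript, with lengths from GENCODE M21 (GRCm38), and only for the genes with 1 row. In medium the order from the highest level was Il2rg, Il7r, Il2rb, Jak1, Il2ra and Il4ra, with means of 2226 ± 109.6, 1019 ± 21.8, 185 ± 17.8, 110.6 ± 2.33, 98.5 ± 4.46 and 33.6 ± 1.59 CPM per kb (SD, n = 2). With TL1A the order was Il2rg, Il2rb, Il2ra, Il7r, Jak1 and Il4ra, with means of 5228 ± 197, 632 ± 59, 437 ± 0.028, 339 ± 3.54, 162 ± 7.5 and 61 ± 2.98 CPM per kb. Neighbours in either order did not overlap between libraries. The closest pair was Jak1 and Il2ra in medium, at 112 and 109 CPM per kb for Jak1 and 95.3 and 101.6 CPM per kb for Il2ra. Il21r, at 0.33 to 0.605 CPM per kb over the 4 libraries, was below all of them.

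A ratio of 2 genes within a library does not depend on the scaling of that library. The ratio of Il2ra to Il7r per kb was 0.095 and 0.0983 in medium against 1.28 and 1.3 with TL1A, 13.3 times as high. Il7r was thus above Il2ra in each medium library and below it in each TL1A library. The ratio of Il7r to Il2rg was 0.467 and 0.449 in medium against 0.0636 and 0.0661 with TL1A, 7.06 times as low.

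Relative to the common gamma chain gene, the other chains shifted less. The ratio of Il2ra to Il2rg was 0.0444 and 0.0441 in medium against 0.0814 and 0.0858 with TL1A, and that of Il2rb to Il2rg was 0.0804 and 0.0859 in medium against 0.126 and 0.116 with TL1A. For Il4ra the ratio to Il2rg was 0.0162 and 0.0141 in medium against 0.0118 and 0.0116 with TL1A, so Il4ra rose less than its partner chain in both TL1A libraries. Each of these ratios separated the conditions, but with 2 libraries against 2 the smallest p of an exact permutation test is 0.333, so they are given as descriptions.

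**Figure D3:**
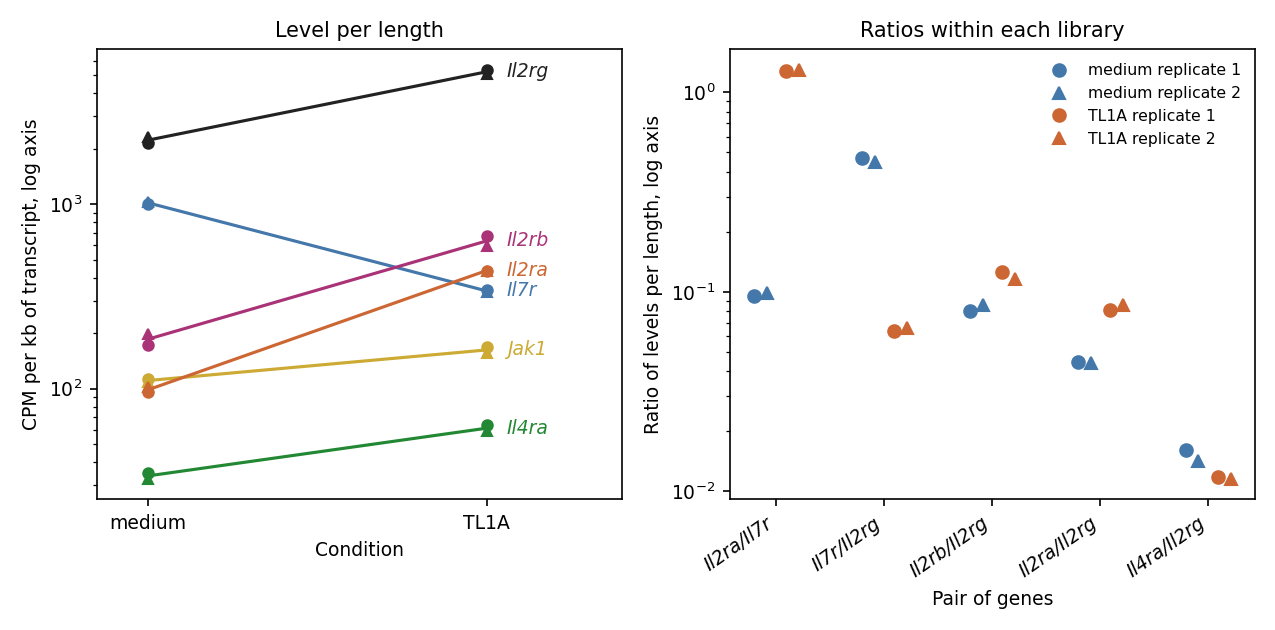
Left, CPM per kb of transcript (log axis) of the 6 called genes in medium and TL1A, with points for libraries and lines joining the means; right, ratios of these levels between 2 genes in each library (log axis). The lines of Il7r and Il2ra cross, and their ratio goes from below 0.1 in the medium libraries to above 1 in the TL1A libraries.

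The tested genes closest in pattern were found by the Euclidean distance between log2 CPM values, each gene centred on its own mean over the 4 libraries. Nearest to Il2ra were Cd47 (distance 0.02), Rbpms2 (0.045) and Rac2 (0.053). Rac2, a GTPase gene of blood cells, had 964 and 1046 CPM in medium and 4621 and 4418 CPM with TL1A, and Cd47, which encodes a surface protein that restrains phagocytosis, had 76.4 and 81 CPM in medium and 355 and 354 CPM with TL1A. Nearest to Il7r were Flywch2 (0.036), Slc25a23 (0.044) and Ahr (0.045). Ahr, a ligand-activated transcription factor gene of ILC3s, had 48.6 and 51.5 CPM in medium and 16.3 and 16.6 CPM with TL1A. With 2 conditions, such a distance mostly measures a like fold change.

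Among the 6 cytokines that use the common gamma chain, Il2 rose, and it was the only called one of the 3 that could be tested. Il2 had 1 and 2 reads in the medium libraries against 40 and 71 in the TL1A libraries, a ratio of 42.9 with a 95% exact (Clopper-Pearson) counting interval of 14.3 to 211, which covers counting error only (edgeR adjusted p = 0.000417). Il4 and Il7 were not called, with log2 fold changes of -0.43 (SE 0.54) and -0.16 (SE 0.39). Il15 and Il21, each with 2 rows, had 0 reads in every library, as did Crlf2 and Tslp, also with 2 rows each, the genes of a chain that pairs with the IL-7 receptor alpha chain and of its ligand. T cells are a known source of IL-2, and of 8 T cell markers 7 had a row, 3 were tested and none was called. Their summed level was 139.7 and 120.4 CPM in medium and 105 and 122 CPM with TL1A, nearly all of it from Lat. Cd8a had 0 reads in every library, but it has 2 rows, so its zeros do not measure expression. Among the CD3 chain genes, with 1 row each, Cd3d was too low to test, with 2 and 2 reads in the medium libraries against 8 and 9 in the TL1A libraries. Cd5, another T cell surface gene below the filter, had 0 reads in both medium libraries against 2 and 4 in the TL1A libraries. Cd3e had 0 and 16 reads in the medium libraries against 20 and 16 in the TL1A libraries, and Cd3g had 19 and 44 against 26 and 40. Cd8b1, with 1 row, had 1 and 0 reads in the medium libraries against 0 and 0 in the TL1A libraries. The CD3 chain genes, Cd5 and Cd8b1 thus stayed at or below 44 reads in each library. Cd3d and Cd5 were higher in both TL1A libraries, whereas Cd3g overlapped and Cd8b1 was not higher. Lat was not called (log2 fold change -0.23, SE 0.12). The part of T cells in the Il2 result was not tested.

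Among the 7 STAT genes, which encode the factors that these kinases phosphorylate, 6 were tested, and 2 rose, 2 fell and 2 were not called. Stat6, which acts downstream of the IL-4 receptor, had 873 and 861 CPM in medium and 1628 and 1607 CPM with TL1A (log2 fold change 0.90, SE 0.06, edgeR adjusted p = 2.06e-05). Stat5b fell from 46.6 and 37.9 CPM to 10.5 and 10.6 CPM (log2 fold change -1.999, SE 0.17, edgeR adjusted p = 8.59e-05), and Stat4 fell by 0.44 on the log2 scale (SE 0.07). Stat5a, with 13 and 14 reads in the medium libraries and 36 and 38 in the TL1A libraries, rose by 1.66 (SE 0.39). This call was lost without TL1A replicate 1 (edgeR adjusted p = 0.0627), without TL1A replicate 2 (0.0566) and with DESeq2 (0.0595). Stat5a and Stat5b are near-identical copies with 2 rows each, so reads of either may be lost or divided and the value of either alone is uncertain. Stat3, with 3 rows, had 0 reads in every library.

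The other 2 Janus kinases, Jak2 and Tyk2, were both called higher but on few reads, and both have 2 rows. Jak2 had 6 and 5 reads in the medium libraries against 52 and 37 in the TL1A libraries (log2 fold change 3.21, SE 0.49, edgeR adjusted p = 0.00166). Tyk2 had 7 and 11 reads in the medium libraries against 23 and 34 in the TL1A libraries (log2 fold change 1.86, SE 0.48, edgeR adjusted p = 0.0175), and its call was lost without medium replicate 1 (0.0912), without TL1A replicate 2 (0.143) and with DESeq2 (0.0773). Of the 12 adaptor and PI3K genes, 8 were tested, and 2 rose, 1 fell and 5 were not called. Nras, which encodes a GTPase, rose by 0.71 (log2, SE 0.07) and the adaptor gene Irs2 fell by 0.74 (SE 0.20). The call of Irs2 was lost without medium replicate 1 (edgeR adjusted p = 0.0902), without TL1A replicate 1 (0.0896) and with DESeq2 (0.0853). The adaptor gene Grb2 rose by 0.38 (SE 0.11, edgeR adjusted p = 0.031), a call lost when any 1 library was left out. It was also lost with the replicate block (edgeR adjusted p = 0.078) and with upper-quartile factors (0.0587). With scaling by library totals only, its log2 fold change was 0.12 (0.404). Gab2, with 2 rows, had 0 reads in every library.

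Of 10 genes that STAT5 is known to induce, 7 were tested, and 4 rose, 1 fell and 2 were not called. Ccnd2, a D-type cyclin gene, rose by 4.42 (log2, SE 0.08), Cish, a feedback inhibitor gene, by 3.37 (SE 0.11) and Pim1, a kinase gene, by 1.34 (SE 0.13). The fourth, the cytokine gene Osm, rose by 0.87 (SE 0.24, edgeR adjusted p = 0.0241), but the call was lost without any 1 of the 4 libraries: without medium replicate 1 (0.0704), medium replicate 2 (0.0637), TL1A replicate 1 (0.0898) or TL1A replicate 2 (0.0592). It was also lost with DESeq2 (0.102) and with scaling by library totals only (0.0731). Bcl2, a survival gene maintained by IL-7 in lymphocytes, fell by 1.504 (SE 0.09), and its 2 rows were both lower in the TL1A libraries. Myc and Socs2, each with 4 rows, had 0 reads in every library. Among 10 negative regulators of JAK-STAT signalling, 8 were tested, and 3 rose, 2 fell and 3 were not called. Besides Cish, which is on both lists, the phosphatase gene Ptpn1 rose by 0.70 (SE 0.11), Pias1 fell by 0.41 (SE 0.07) and the phosphatase gene Ptpn6 fell by 1.01 (SE 0.26). Ptpn6 had only 109 and 105 reads in the medium libraries against 38 and 54 in the TL1A libraries. It has 2 rows, so some of its reads may be lost as ambiguous. The adaptor gene Sh2b3 rose by 0.80 (SE 0.22, edgeR adjusted p = 0.024), a call that was lost without medium replicate 1 (0.0896), without TL1A replicate 1 (0.123) and with scaling by library totals only (0.0817). The Ptpn6 call was lost without medium replicate 1 (edgeR adjusted p = 0.0657), without TL1A replicate 1 (0.0856) and with DESeq2 (0.0708).

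Receptor chains for cytokines that signal through Janus kinases but without the common gamma chain were set beside the set. Of 19 such chains, 14 were tested, and 4 rose, 3 fell and 7 were not called, with a median log2 fold change of 0.13. Il27ra, a chain of the IL-27 receptor, rose from 193 and 217 CPM to 1017 and 963 CPM (log2 fold change 2.27, SE 0.08, edgeR adjusted p = 1.25e-06), a change of about the size of that of Il2ra. The interferon receptor genes Ifnar1 and Ifngr2 rose by 0.67 (SE 0.09) and 0.70 (SE 0.13), and Il23r, the reporter locus, fell by 0.63 (SE 0.06). The other 3 called chains, chosen after their values were seen, were Il10rb, Il6st and Ifngr1. Il10rb rose by 0.63 (SE 0.14, edgeR adjusted p = 0.00851), a call lost with scaling by library totals only (0.0547). Il6st, the shared chain of the IL-6 family receptors, fell by 0.55 (SE 0.18, edgeR adjusted p = 0.0416). That call was lost when medium replicate 1 (0.194), TL1A replicate 1 (0.158) or TL1A replicate 2 (0.0691) was left out, with the replicate block (0.0778), with DESeq2 (0.0958) and with limma-voom (0.0509). Ifngr1 fell by 0.21 (SE 0.07, edgeR adjusted p = 0.0476). It lost its call when any 1 library was left out, be it medium replicate 1 (0.0892), medium replicate 2 (0.0759), TL1A replicate 1 (0.355) or TL1A replicate 2 (0.0775), with the replicate block (0.133), with RLE factors (0.0897) and with DESeq2 (0.0805). Whether the common gamma chain genes differ as a group from these chains was not tested.

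**Figure D4:**
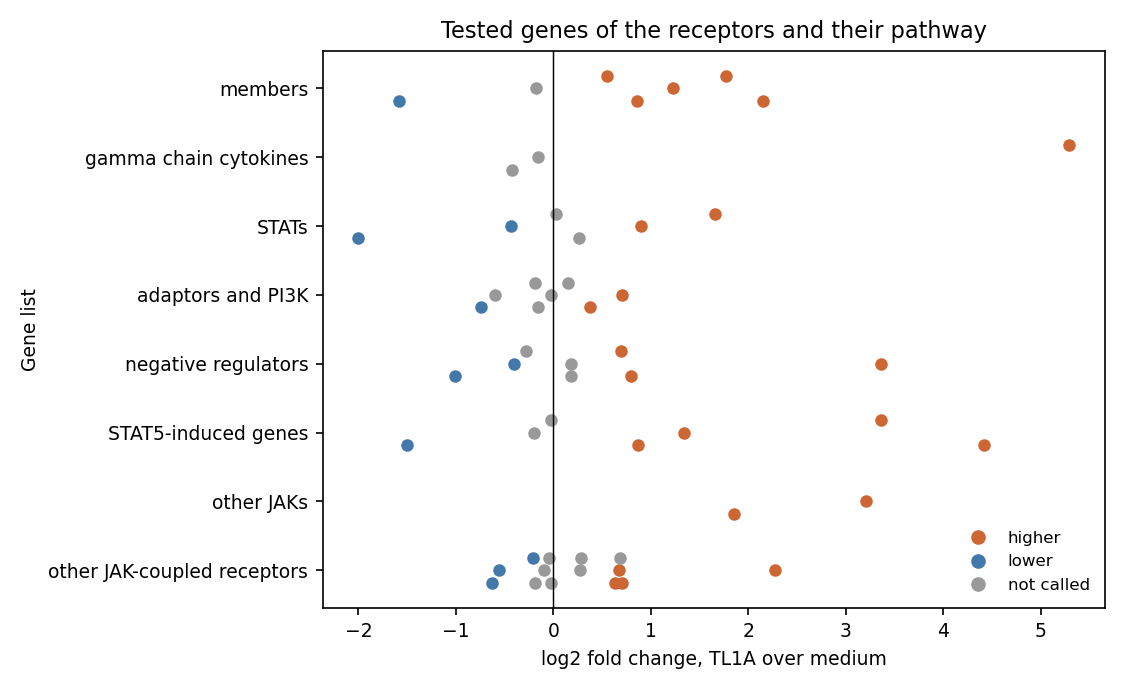
Log2 fold changes, TL1A over medium, of each tested gene in the set (members) and in 7 lists of its pathway; colours give the edgeR call at an adjusted p under 0.05. Higher and lower genes occur together in most lists, with Il2 and Ccnd2 farthest to the right and Stat5b farthest to the left.

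Markers of the labelled cell type were read first. Of 9 ILC3 markers, 8 were tested, and Il23r had 1007 and 996 CPM in medium and 663 and 632 CPM with TL1A. Because the cells had been sorted by the reporter of this locus, Il23r cannot check the label. Kit, with 2 rows, had 1 read in all. Markers of other cell types that are named with a few reads or without a call, here and beside Il2, were chosen after their values were seen. Of 8 myeloid markers, 7 were tested, and 1 rose, 3 fell and 3 were not called. They summed to 1649 and 1821 CPM in medium and 746 and 731 CPM with TL1A, mostly through Fcer1g, which NK cells and ILCs also express and which fell by 1.25 (log2, SE 0.07, edgeR adjusted p = 1.04e-05). Cd14, a co-receptor gene for bacterial lipopolysaccharide, had 574 and 658 reads in the medium libraries against 51 and 66 in the TL1A libraries (log2 fold change -3.18, SE 0.17, edgeR adjusted p = 8.55e-06). Mpeg1 fell by 1.90 (SE 0.50, edgeR adjusted p = 0.0192), and leaving out medium replicate 2 ended that call (0.0733). Leaving out a TL1A library moved its value to -2.98 (TL1A replicate 1 left out) or -1.26 (TL1A replicate 2 left out). Adgre1, a macrophage surface gene, rose by 0.91 (SE 0.27, edgeR adjusted p = 0.0312), a call lost without medium replicate 2 (0.099), without TL1A replicate 2 (0.141), with the replicate block (0.0524) and with scaling by library totals only (0.0906). The falls of Cd14 and Fcer1g were called under all 13 alternative settings. The calls of Mpeg1, a fall, and of Adgre1, the only called rise, were not kept under all of them. The 3 markers not called had log2 fold changes of -0.65 (SE 0.31, Lyz2), -0.16 (SE 0.34, Csf1r) and 0.24 (SE 0.24, Cd68).

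B cell markers summed to 36.5 and 47.8 CPM in medium and 114 and 97.8 CPM with TL1A, nearly all of it from Cd79b, the only one tested. Cd79b, which encodes a chain of the B cell receptor, had 451 and 630 reads in the medium libraries against 1226 and 1133 in the TL1A libraries (log2 fold change 1.35, SE 0.16, edgeR adjusted p = 0.000418). Its partner chain gene Cd79a had 8 and 8 reads against 1 and 1, and Ms4a1 and Pax5, with 1 row each, had none. Of 6 ILC1 and NK cell markers, 3 were tested, and 1 rose, 1 fell and 1 was not called, with summed levels of 10.1 and 6.74 CPM in medium and 23.3 and 18.1 CPM with TL1A. Gzmb, a granzyme gene, had 11 and 3 reads in the medium libraries against 117 and 134 in the TL1A libraries (log2 fold change 4.34, SE 0.46, edgeR adjusted p = 0.000259). That log2 fold change was 5.57 without medium replicate 1 and 3.69 without medium replicate 2. Gzma, another granzyme gene, went the other way, with 72 and 80 reads against 13 and 13 (log2 fold change -2.32, SE 0.33, edgeR adjusted p = 0.0012). The perforin gene Prf1 was not called, with 44 and 7 reads against 120 and 61 (log2 fold change 2.03, SE 0.70, edgeR adjusted p = 0.0512). Itgam, Eomes and Klra8 had 0 reads, but each has 2 rows, so these zeros do not measure expression. The 4 libraries held 11495636 to 12605164 assigned reads, and the part of other cell types in the changes of the receptor genes was not tested.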

How the data were processed

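The libraries were RNA-seq of sorted ILC3s, with groups and replicate numbers from the sample titles. The SMARTer Ultra Low Input RNA Kit was used for cDNA, per the labels' protocols. Per the submitters' processing notes, the authors used CASAVA, STAR and HTSeq on mm9, with versions, strand setting and annotation not given in the sources used here. What the authors deposited are raw counts of reads for each RefSeq transcript. Without a known strand setting, reads of antisense partners cannot be told apart. The 5 HTSeq summary rows, 69.9% to 71.3% of all numbers in a column, name no gene and were left out, and 33.7% to 34% of the reads that fell on transcripts were ambiguous.

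Of 33535 rows, 33154 were matched to symbols through the RefSeq gene table of GRCm38.p6, used for names only, and rows of a gene were summed. The 381 rows without a match were kept, each counted as a gene of its own. Counts of all 4 libraries were tested with edgeR 4.0.16 (R 4.3.3) by glmQLFit and glmQLFTest, two-sided, with TMM scaling, group as the single term and filterByExpr at a minimum count of 10. CPM uses the TMM library size of the tested genes. The SE is the log2 fold change divided by the square root of F. The script was tested on simulated data with 50 changed genes at each size. It recovered 20% of them at a log2 fold change of 0.5, 72% at 1 and 98% at 2. A gene that was not called may therefore still have changed. Chi-square per degree of freedom between replicates was 11.5 in medium and 7.5 with TL1A, so no library was a repeat. DESeq2 1.42.0 and limma-voom (limma 3.58.1) were alternatives.

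All members of the set, the lists and the rule for named genes were chosen with earlier results of these data known. The rule names the 10 genes, up to 4 called genes of each list with the smallest p, list genes with 0 reads in every library, and the 3 genes nearest to Il2ra and to Il7r. Osm, Sh2b3, Il4 and Il7 lie outside this rule and were named with their values known. Some marker genes are not reported here.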

Additional observations from a re-analysis of the deposited data

How the results depend on the processing

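Under all 13 alternatives (RLE, upper-quartile or no scaling factors, DESeq2, limma-voom, no low-count filter, the row with the most reads, the replicate number as a block, crossed numbers as a block, and each library left out) 6 members of the set were called, 5 higher and 1 lower. The log2 fold changes ranged from 1.89 to 2.22 for Il2ra, 1.51 to 1.90 for Il2rb, 0.97 to 1.31 for Il2rg, 0.60 to 0.92 for Il4ra, 0.29 to 0.61 for Jak1 and -1.85 to -1.54 for Il7r. That of Il21r, on 10 to 19 reads a library, ranged from -0.53 to 0.31 when 1 library was left out. In those fits the low-count filter, the scaling and the spread were also computed anew from the libraries kept. Genes called over the whole table were 4168 as reported and 3250 to 4785 under the alternatives. The alternatives with no scaling factors and with crossed numbers were chosen after seeing the data. Of 32 genes outside the set (the called genes of the pathway lists and those nearest to Il2ra and Il7r), 22 kept their direction and call under every alternative.

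The titles give both conditions the same replicate numbers, with no word on their meaning. The correlation of deviations between libraries with the same number was -0.105, so the numbers were not used as pairs. With the replicate block 3542 genes were called, and with the numbers crossed 4734. The test for unequal change between the rows of a gene was not run for the set, because none of its genes has 2 rows with reads.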
